A study of Mus musculus with 6 samples.

Results

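Calcineurin, the phosphatase that the study calls PP2B, was described here through the mRNA levels of its subunits, its inhibitors and the NFAT transcription factors that it controls. The 10 genes were chosen by name, because MICT1, the microprotein deleted in these cells, is linked by the study to PP2B. Of these, 9 were among the 13283 genes of the expression table and all 9 passed the filter on low values, whereas Rcan2 is not in the table and was not analysed here. They were the catalytic subunits Ppp3ca, Ppp3cb and Ppp3cc, the regulatory subunit Ppp3r1, the inhibitors Rcan1 and Cabin1, and the factors Nfatc1, Nfatc3 and Nfatc4.

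The cells were an immortalized mouse brown preadipocyte line (BAT cells) carrying Cas9. The 3 control libraries, with WT genotype in the labels, came from cells given scrambled sgRNA (Scr), and the 3 MICT1-CRISPR KO libraries (MICT1 KO) from pools of cells given sgRNA against MICT1 and sorted for GFP. The study made 2 such pools, and the labels do not say which pool each library came from. Cells of both groups were put through brown adipocyte differentiation with a cocktail that contained insulin, IBMX, dexamethasone, T3, indomethacin and rosiglitazone. On day 6 they were exposed for 6 h to 10 µM forskolin, an activator of adenylyl cyclase that raises cAMP. Adipocyte markers were much lower in the MICT1 KO libraries, as given below. The comparison addresses whether the loss of MICT1 went with a different supply of transcripts for that phosphatase. Expression of the targeted gene was not analysed here, and the KO labels thus went unchecked.

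Calcineurin is a heterodimer of a catalytic A subunit and a regulatory B subunit and is switched on by calcium and calmodulin. It removes phosphates from NFAT proteins, which then enter the nucleus and activate transcription, until kinases phosphorylate them again and they leave. In brown adipocytes, the study reports, calcineurin also dephosphorylates RIIβ, a regulatory subunit of protein kinase A (PKA). Such an action would tie calcium signals to the cAMP pathway that drives thermogenesis. RCAN proteins and CABIN1 bind the phosphatase and hold it back, and Rcan1 is itself a classical NFAT target gene, so that it serves as a feedback brake.

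Values below are the authors' normalized signal per gene, read here as reads scaled by a factor of the library. From the steps between low values, the libraries held between about 15442130 and 17925609 such reads. The 6 libraries fell apart by group. Pearson r across genes was 0.987 to 0.990 within a group and 0.929 to 0.940 between groups, and genes are not independent replicates. Groups were compared by limma-trend on log2(value + 1), with Benjamini-Hochberg adjustment over 12507 genes that reached a value of 10 in at least 3 libraries. Adipocyte markers were lower in MICT1 KO cells for 10 of 10 genes, with log2 fold changes from -6.66 (Adipoq) to -2.31 (Pparg). Their summed level was 7531 to 9104 CPM (the share of the library total, scaled) in Scr and 901 to 1308 CPM in MICT1 KO libraries. Ucp1 was low in both groups, with a mean signal of 25.1 under Scr and 4.10 after MICT1 KO. By adjusted p under 0.05 in limma-trend, 28.3% of all genes tested were lower and 28.5% higher. Of 10 markers of adipose progenitors and fibroblasts 8 were in the table, with sums of 2227 to 2593 CPM in Scr and 3062 to 3257 CPM in MICT1 KO libraries, and of the 6 tested 2 were lower and 3 higher. Of 8 macrophage markers 4 were in the table (16.6 to 23.1 CPM in Scr and 31.8 to 39.2 CPM in MICT1 KO libraries), and 1 of these 4 was higher and 0 lower. That was Cd14, with a mean signal of 192 under Scr and 444 after MICT1 KO, while Csf1r, Cd68 and Mrc1 did not pass. Adgre1, Ptprc, Itgam and Lyz2 were not in it. Of 5 endothelial, 7 muscle and 5 T cell markers 1, 2 and 0 were in it, at sums of at most 5.74 CPM. The endothelial marker, Cdh5, was higher, with a mean signal of 8.71 under Scr, near the filter value of 10, and 29.9 after MICT1 KO. The 2 muscle markers did not pass. The study also reports lower adipogenic genes, such as Pparγ and Fabp4, in its CRISPR KO cells. It saw no such change where MICT1 was knocked down after differentiation. It calls it plausible that the genomic deletion affected differentiation in culture. The part of this shift in cell state in the values below was not tested. Fewer cells of a type and less RNA per cell cannot be told apart in such libraries.

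The calcineurin and NFAT genes changed in both directions and by small amounts. By adjusted p under 0.05, 4 of the 9 were higher in MICT1 KO cells (Ppp3ca, Ppp3cb, Rcan1 and Cabin1) and 3 were lower (Ppp3r1, Nfatc1 and Nfatc3), whereas Ppp3cc and Nfatc4 did not pass. With each library left out in turn 2 to 3 were higher and 2 to 3 lower, with 2 higher without Scr replicate 2 and 2 lower without MICT1 KO replicate 3. Among all genes tested 56.9% passed, 28.5% as higher and 28.3% as lower, beside 7 of 9 (77.8%) of these genes. The genes were chosen with earlier results of these data known, so this share is a description only. The same 7 genes had MICT1 KO values that all stayed clear of the Scr values, as did 62.0% of all genes tested. The log2 fold changes ran from -0.37 to 0.38, with a median absolute value of 0.21 against 0.33 over all genes tested. None of the 9 reached the 1.8-fold change that the methods of the study required, which 17.5% of all genes tested reached with an unadjusted p under 0.05.

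**Figure D1:**
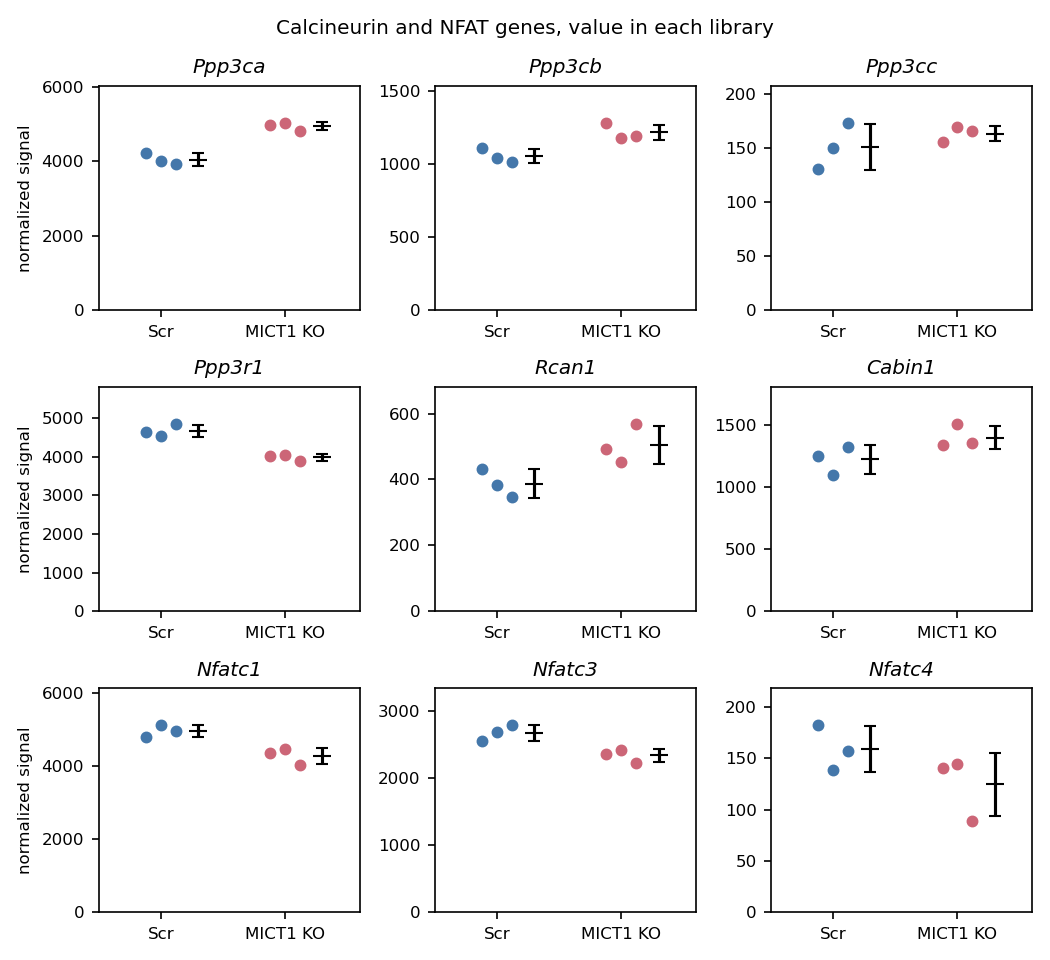
Normalized signal (vertical axes, from 0) of the 9 genes in each of the 3 Scr (blue) and 3 MICT1 KO (red) libraries, with the mean and SD of each group in black. Points of the groups overlap for Ppp3cc and Nfatc4, and for the other 7 genes they do not.

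The catalytic A subunits carry the active site of the phosphatase. Ppp3ca (chromosome 3, from 136670124 to 136937727, GRCm38), which encodes the Aα isoform, had a signal of 4234, 3999.9 and 3919.6 under Scr, against 4987, 5021 and 4827 after MICT1 KO. The 3 MICT1 KO libraries lay close together and above every Scr library. The means were 4051 ± 163 (SD, n = 3) and 4945 ± 103 (SD, n = 3), which limma-trend put at 0.29 on the log2 scale with standard error 0.054 and adjusted p 0.000110, a 1.22-fold difference. With each library left out in turn it stayed between 0.26 and 0.32 and passed the threshold every time.

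Ppp3cb (chromosome 14, from 20499364 to 20546573), the Aβ isoform, rose by less. The signal reached 1109, 1042 and 1017 under Scr, against 1280.4, 1180.1 and 1194 after MICT1 KO, without overlap. On the log2 scale limma-trend gave 0.21 with standard error 0.070 and adjusted p 0.0168, a 1.15-fold difference. This call did not hold without Scr replicate 2, Scr replicate 3 or MICT1 KO replicate 1, which left 0.20, 0.18 and 0.17 on the log2 scale and an adjusted p of 0.0555, 0.0588 and 0.0656.

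Ppp3cc (chromosome 14, from 70217865 to 70289471), the Aγ isoform best known from testis and brain, was the least abundant catalytic transcript. The signal reached 131, 150.2 and 173 under Scr, against 155, 169.6 and 166 after MICT1 KO. The MICT1 KO values fell inside the Scr range, and the log2 fold change of 0.12 (95% interval -0.21 to 0.46, adjusted p = 0.544 from limma-trend) leaves both directions possible. In the GENCODE annotation 91 of the exonic bases of Ppp3cc face exons of Gm49417 on the opposite strand.

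Ppp3r1 (chromosome 11, from 17159263 to 17200375) encodes the calcium-binding B subunit, which every calcineurin dimer outside the testis uses. It moved in the direction opposite to Ppp3ca and Ppp3cb. The signal reached 4626, 4522 and 4835 under Scr, against 4021, 4039.6 and 3885 after MICT1 KO. Every MICT1 KO library lay below every Scr library. The means were 4661 ± 159 (SD, n = 3) and 3982 ± 84.5 (SD, n = 3), which limma-trend put at -0.23 on the log2 scale with standard error 0.053 and adjusted p 0.00112, and transcripts fell by 14.5%. Every fit that left out a library kept the call, with log2 fold changes from -0.25 to -0.20. On the same strand, 462 of the 3228 exonic bases of Ppp3r1 are shared with Wdr92 in the GENCODE annotation, so reads there could have been given to either gene.

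Levels of different genes were set side by side per length, as RPKM, the reads of a gene divided by its exon length and by the library total. The catalytic subunits summed to 36.9, 34.3 and 34.5 RPKM under Scr, against 42.4, 42.6 and 41.5 RPKM after MICT1 KO. Ppp3r1 stood at 89.0, 84.3 and 91.4 RPKM under Scr, against 75.8, 76.9 and 74.1 RPKM after MICT1 KO. The B subunit was thus the more abundant transcript in all 6 libraries. Its RPKM divided by that of the summed A subunits was 2.51 ± 0.123 (SD, n = 3) under Scr, against 1.79 ± 0.0107 (SD, n = 3) after MICT1 KO. All 3 MICT1 KO ratios, 1.787, 1.804 and 1.784, lay below the lowest Scr ratio of 2.41, and the mean ratio decreased by 28.5%. This ratio was given no test, since it is made of members that had been tested singly.

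The make-up of the catalytic pool moved little beside its size. Ppp3ca made up 71.4%, 70.4% and 69.4% of the catalytic RPKM under Scr, against 71.7%, 72.5% and 71.7% after MICT1 KO. Ppp3cb made up 20.8% ± 0.406 (SD, n = 3) under Scr, against 20.1% ± 0.772 (SD, n = 3) after MICT1 KO, and Ppp3cc 8.81% ± 1.44 (SD, n = 3) and 7.96% ± 0.430 (SD, n = 3). For Ppp3cb and Ppp3cc the libraries of the groups overlapped, and for Ppp3ca the highest Scr share stood just below the lowest MICT1 KO share. These shares depend on the exon length assigned to each gene, and with coding lengths the share of Ppp3cc was 2.93% in Scr and 2.62% in MICT1 KO libraries.

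**Figure D2:**
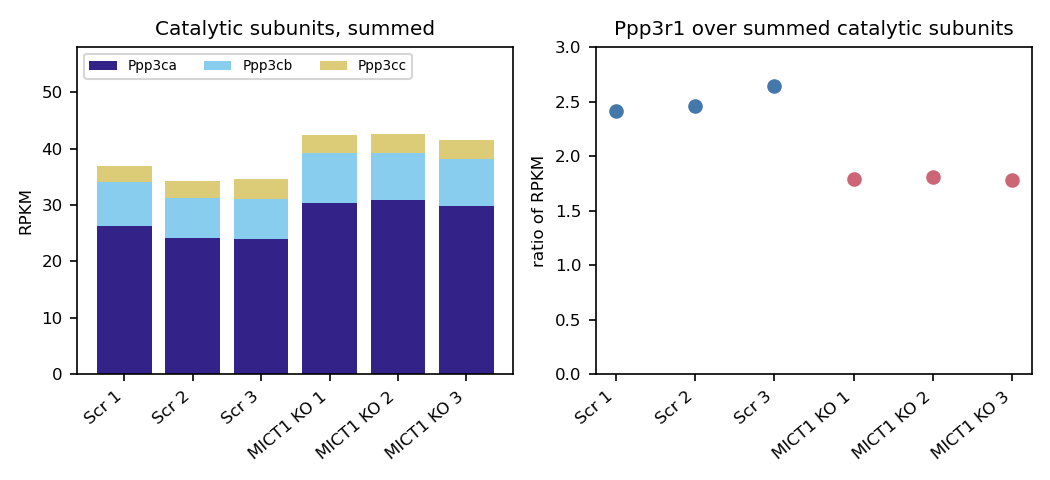
Left, RPKM of the catalytic subunits Ppp3ca, Ppp3cb and Ppp3cc stacked for each library (bars from 0). Right, RPKM of Ppp3r1 divided by the summed catalytic RPKM, with Scr libraries in blue and MICT1 KO libraries in red. The bars reach 34.3 to 36.9 RPKM in Scr and 41.5 to 42.6 RPKM in MICT1 KO libraries, and the ratio is between 2.41 and 2.65 in Scr and between 1.784 and 1.804 in MICT1 KO libraries.

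Rcan1 (chromosome 16, from 92391953 to 92470867), the feedback inhibitor, showed the largest change among the genes that passed. Mouse RefSeq (GRCm38.p6) gives it separate start sites, and the windows of 250 bases before them are shown because NFAT and the cAMP pathway, on which forskolin acts, work through known motifs. Capitals mark TGACGTCA, the cAMP response element (CRE), and GGAAA, the NFAT core, on either strand. The windows lie on the minus strand at chr16:92466170-92466419 (distal start) and chr16:92400079-92400328 (internal start), 66091 bases apart as starts, and neither overlaps an annotated Rcan1 exon. Both lie inside longer annotated transcripts, 1 across the window of the distal start and 4 across that of the internal start, and distal here means only farther upstream than the internal start.
Rcan1 distal start: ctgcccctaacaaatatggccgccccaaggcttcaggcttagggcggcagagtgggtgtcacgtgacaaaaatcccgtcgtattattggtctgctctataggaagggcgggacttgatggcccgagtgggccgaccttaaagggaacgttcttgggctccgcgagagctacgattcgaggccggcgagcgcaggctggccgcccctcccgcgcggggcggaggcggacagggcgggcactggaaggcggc
Rcan1 internal start: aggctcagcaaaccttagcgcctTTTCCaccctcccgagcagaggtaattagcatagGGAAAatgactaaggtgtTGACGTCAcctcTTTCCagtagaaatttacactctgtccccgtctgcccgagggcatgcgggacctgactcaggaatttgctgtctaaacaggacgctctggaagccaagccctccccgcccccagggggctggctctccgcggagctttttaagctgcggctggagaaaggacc

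The window before the internal start holds 1 CRE, whose first base is 175 bases before the start, and 3 GGAAA motifs, whereas the distal window holds 0 of either. Among 32841 mouse promoter windows of this length 1.55% hold TGACGTCA, 55.6% hold GGAAA and 0.883% hold both. The other members with windows (Nfatc3, Cabin1, Ppp3r1, Ppp3cb, Nfatc4 and Rcan2) had 0 TGACGTCA. The shorter TGACG within that motif, held by 17.8% of all windows, was found 1 time each for Ppp3r1 and Nfatc3. Ppp3cb and Nfatc4 had 3 GGAAA motifs each, Rcan2 had 2 over its 3 windows, and Nfatc3 had 1 over its 2 windows. A match is a description of these letters and not a measured binding site. Ppp3ca, Ppp3cc and Nfatc1 had no window.

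The value of Rcan1 sums all its transcripts, so the starts could not be told apart. The signal reached 433, 383 and 346 under Scr, against 493, 452 and 567 after MICT1 KO. The lowest MICT1 KO library stood only slightly above the highest Scr library, and the spread within each group was wide for a change of this size. The means were 387 ± 43.8 (SD, n = 3) and 504 ± 58.3 (SD, n = 3), which limma-trend put at 0.38 on the log2 scale with standard error 0.11 and adjusted p 0.00673, a 1.30-fold difference. Without MICT1 KO replicate 3, the highest library, the log2 fold change was 0.29 and the adjusted p 0.0533 (limma-trend).

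Cabin1 (chromosome 10, from 75646112 to 75764341) encodes a large nuclear protein that binds calcineurin and also the transcription factor MEF2. The signal reached 1246, 1096 and 1322 under Scr, against 1334, 1502 and 1349.6 after MICT1 KO. The groups nearly touched, with Scr replicate 3 just under MICT1 KO replicate 1. On the log2 scale limma-trend gave 0.19 with standard error 0.077 and adjusted p 0.0367, a 1.14-fold difference. Like that of Ppp3cb, this call was lost in 3 of the 6 fits that left out a library, with an adjusted p of 0.0549 without Scr replicate 1 (log2 fold change 0.21), 0.241 without Scr replicate 2 (0.12) and 0.164 without MICT1 KO replicate 2 (0.14).

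NFAT factors are the substrates through which calcineurin reaches the nucleus. Nfatc1, on chromosome 18, was the most abundant of them and reached 4795, 5118 and 4969.8 under Scr, against 4356, 4462 and 4030.1 after MICT1 KO. The MICT1 KO libraries were all below the Scr libraries. The means were 4961 ± 162 (SD, n = 3) and 4283 ± 225 (SD, n = 3), which limma-trend put at -0.21 on the log2 scale with standard error 0.056 and adjusted p 0.00280, and the level fell by 13.7%. The call held with each library left out, at log2 fold changes from -0.24 to -0.17.

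Nfatc3 (chromosome 8, from 106058840 to 106130537) fell by a like amount. The signal reached 2551, 2681 and 2782 under Scr, against 2354, 2423 and 2228 after MICT1 KO, again without overlap. On the log2 scale limma-trend gave -0.19 with standard error 0.060 and adjusted p 0.00875, and without MICT1 KO replicate 3 it gave -0.16 with an adjusted p of 0.0547. Of its exonic bases 219 face exons of Esrp2 on the opposite strand. The libraries are described as strand-specific, but the strand setting of the counting is not given in the sources used here.

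Nfatc4 (chromosome 14, from 55823144 to 55833943) was scarce and reached 182, 138 and 157 under Scr, against 140.1, 144 and 89.1 after MICT1 KO. MICT1 KO replicate 3 set most of the difference, and the other MICT1 KO libraries lay inside the Scr range. The log2 fold change was -0.37 (95% interval -0.78 to 0.034, adjusted p = 0.112 from limma-trend), and without that library it was -0.15 (adjusted p = 0.523).

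**Figure D3:**
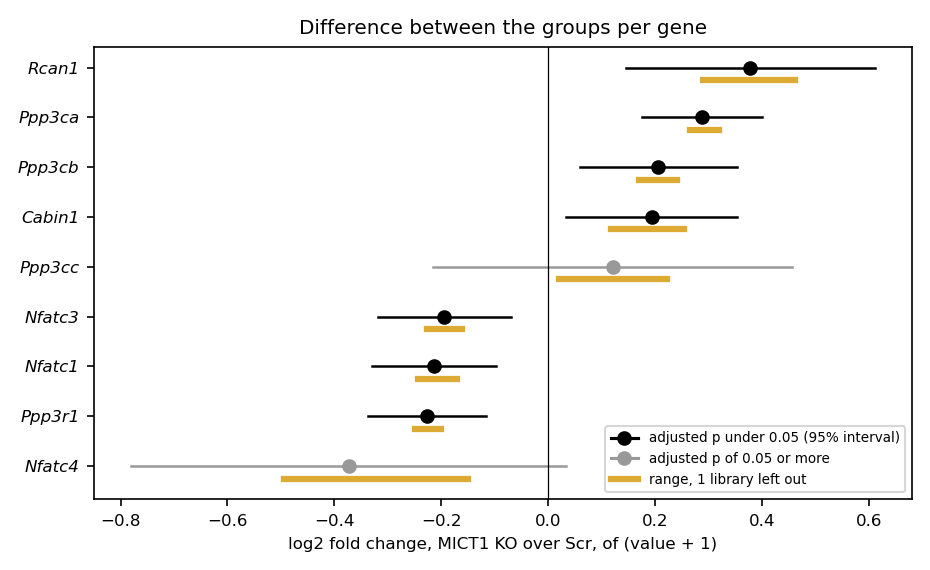
Log2 fold change of (value + 1), MICT1 KO over Scr, for the 9 genes (horizontal axis), with 95% intervals from limma-trend as thin lines and the range over the 6 fits that each left out 1 library as yellow bars. Black points have an adjusted p under 0.05 and grey points (Ppp3cc and Nfatc4) do not.

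Ordered by level per length in Scr libraries, Ppp3r1 came first at 88.2 ± 3.60 RPKM (SD, n = 3), followed by Nfatc1 at 40.6 ± 0.686 RPKM, Ppp3ca at 24.8 ± 1.33 RPKM and Nfatc3 at 13.9 ± 0.503 RPKM (SD, n = 3 each). Then came Rcan1 at 7.68 ± 0.956 RPKM, Ppp3cb at 7.33 ± 0.426 RPKM and Cabin1 at 6.14 ± 0.636 RPKM, with Ppp3cc at 3.09 ± 0.414 RPKM and Nfatc4 at 1.67 ± 0.258 RPKM last (SD, n = 3 each). Rcan1 and Ppp3cb did not differ beyond their spread in Scr libraries. In MICT1 KO libraries the order of the 9 by exon length was the same, and there Rcan1 at 10.0 ± 1.18 RPKM stood above Ppp3cb at 8.47 ± 0.326 RPKM (SD, n = 3 each) in every library. With coding lengths Ppp3ca came before Nfatc1 and Ppp3cb before Rcan1 in both groups, and Nfatc3 came before Ppp3cb in Scr libraries (47.9 and 38.0 RPKM) but after it in MICT1 KO libraries (42.0 and 44.0 RPKM).

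The genes around calcineurin were taken as 5 lists with 63 genes, of which 53 were tested. Of these 22 were lower and 20 higher in limma-trend at the same threshold, or 79.2% together beside 56.9% of all genes tested. The median log2 fold change was -0.043 against -0.0053 over all genes tested, and the median absolute value 0.48 against 0.33. The lists were chosen with earlier results of these data known and were not matched to all genes by level, so these differences are descriptions only. Where the filter was a maximum RPKM of at least 4, 5394 of 8374 genes passed.

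The steps that bring calcium to calcineurin had 4 of 12 genes lower and 7 higher (28.3% and 28.5% of all genes tested). Orai2, a subunit of the store-operated calcium channel, rose from 1249 ± 96.0 (SD, n = 3) to 4130.0 ± 320 (SD, n = 3), or by 1.72 on the log2 scale (limma-trend, adjusted p = 1.155e-14). Calm2 and Calm3, which encode the calcium sensor calmodulin, rose with log2 fold changes of 0.36 and 0.81. Calm3 had a signal of 2637, 2498 and 2415 under Scr, against 4649, 4155 and 4430.2 after MICT1 KO, without overlap. In contrast Itpr1 and Itpr2, receptors that release calcium from the endoplasmic reticulum, fell with log2 fold changes of -0.99 and -0.80, and the cation channel gene Trpc1 fell with -0.81. Itpr3, the remaining receptor of that family, rose with 0.51. Orai3 was the gene that did not pass (0.19, adjusted p = 0.289 from limma-trend).

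Kinases that rephosphorylate NFAT were lower in 6 of 8 genes and higher in 0, beside 28.3% lower and 28.5% higher of all genes tested, with a median log2 fold change of -0.19. The largest falls were those of Dyrk2 (-0.65), Dyrk1a (-0.64) and Gsk3b (-0.43). Dyrk1a, a priming kinase for NFAT export, went from 2038 ± 161 (SD, n = 3) to 1302 ± 29.3 (SD, n = 3) with an adjusted p of 5.74e-08 (limma-trend). Gsk3a (-0.12, adjusted p = 0.0900 from limma-trend) and Dyrk1b (0.17, adjusted p = 0.514) did not pass. The count was 4 with upper-quartile scaling, where the casein kinase genes Csnk1d and Csnk1e missed the threshold, and 4 to 6 with each library left out.

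Of 11 other calcineurin regulators and NFAT relatives 3 were lower and 4 higher (28.3% and 28.5% of all genes tested). Nfatc2, a further calcium-dependent NFAT factor, fell from 92.0, 82.5 and 81.4 under Scr to 29.6, 35.8 and 20.7 after MICT1 KO, which limma-trend put at -1.57 on the log2 scale with standard error 0.28 and adjusted p 6.52e-05. This was the largest change among the NFAT genes of the table. Chp1, which encodes a calcineurin B homologue that inhibits the phosphatase, fell with -0.84, and Akap1, a mitochondrial anchoring protein for PKA and phosphatases, with -0.36. Homer3, which encodes a scaffold that competes with calcineurin for NFAT, rose with 0.80, Nfatc2ip with 0.46 and Ppia, the cyclophilin A gene whose product binds calcineurin only when cyclosporin is present, with 0.70. Ppia has many near-identical pseudogene copies, so its reads are uncertain. Nfat5, which answers to osmotic stress without calcineurin, had a log2 fold change of -0.026 (adjusted p = 0.720 from limma-trend).

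Among 15 genes whose proteins are calcineurin substrates 9 were lower and 3 higher, against 28.3% and 28.5% of all genes tested, with a median log2 fold change of -0.22. Prkar2b and Bcl2l13 were listed because the study counts their proteins among PP2B targets. The study also names the products of Mef2c, Gys2 and Dnm1l (printed as DNML1), and Gys2 was not in the expression table. It names GSK3 as well, whose genes Gsk3a and Gsk3b were placed with the NFAT kinases above. Prkar2b, the RIIβ subunit of PKA, fell most (-1.70, adjusted p = 2.27e-12 from limma-trend), and Prkar2a fell with -0.65. Foxo1 (-1.32), Tfeb (-1.09) and Bcl2l13 (-0.91), which encode regulators of insulin-responsive transcription, of lysosome genes and of mitophagy, fell as well. Bad (0.44), for a cell death factor, rose. Mef2c also rose (2.01, adjusted p = 0.0129 from limma-trend), but from a mean value of 5.09 to 19.0, and the call did not hold without Scr replicate 1 (1.37, adjusted p = 0.0650) or MICT1 KO replicate 1 (1.78, adjusted p = 0.0663). Dnm1l (-0.12, adjusted p = 0.101) and Mef2a (-0.12, adjusted p = 0.123) did not pass.

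The last list held genes that respond to calcineurin in other cell types, and these also answer to cAMP, NF-κB and other signals. Of 12 such genes 7 were in the table, with 6 higher and 0 lower. Of all genes tested 28.5% were higher and 28.3% lower. The median log2 fold change of the 7 was 0.81. Il6 rose from 246, 258 and 164 under Scr to 7635, 7302 and 6398 after MICT1 KO (5.02 on the log2 scale, with adjusted p 2.06e-18 in limma-trend). Ccl2, a chemokine gene, rose 10.6-fold, and Ptgs2, the inducible cyclooxygenase gene, rose with 3.06. Egr3 did not pass (0.41, adjusted p = 0.172 from limma-trend). The rise of Rcan1, 0.38 on the log2 scale, was smaller than that of each of the 6.

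**Figure D4:**
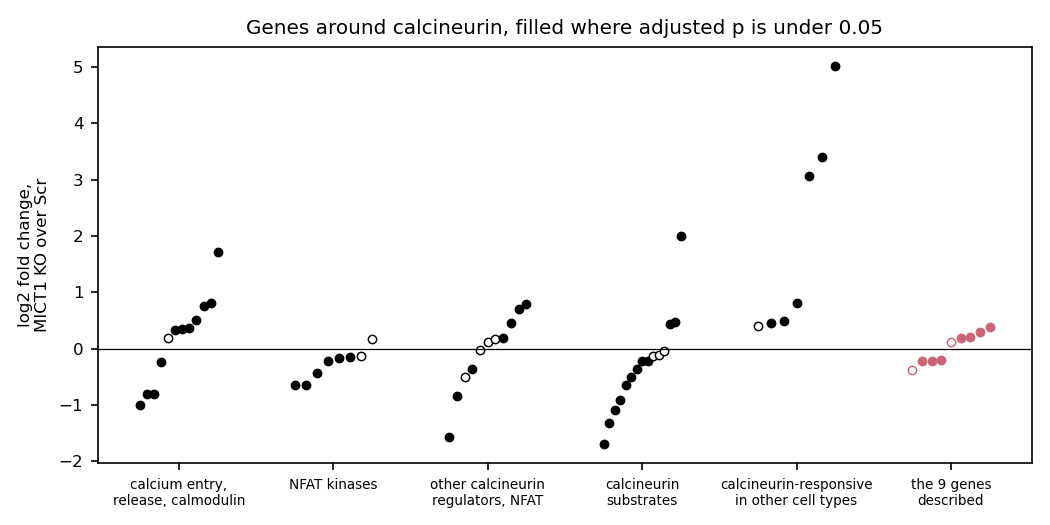
Log2 fold change, MICT1 KO over Scr (vertical axis), of each tested gene of 5 lists around calcineurin and, in red, of the 9 calcineurin and NFAT genes, sorted within each list. Filled points have an adjusted p under 0.05, and the 9 genes lie between -0.37 and 0.38 while the lists reach from -1.70 to 5.02.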

How the data were processed

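RNA-seq of 3 Scr and 3 MICT1 KO libraries was used, grouped and numbered from the sample titles. Per the methods, strand-specific total RNA libraries were sequenced paired-end and aligned with Partek software to NCBI38/mm10, and the submitters' processing notes also name STAR and DESeq2. The counting model and annotation are not given in the sources used here. The authors deposited a normalized signal per gene, 1 column per library, in which 88.7% to 90.3% of values under 20 were whole multiples (within 0.01) of a step of the library. The values were taken as reads scaled by a factor of the library, and the table lists only genes above 0 in every library. Since whole reads could not be recovered for enough values, no count test was run.

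Values were compared in R 4.3.3 with limma 3.58.1 (limma-trend, pseudocount 1, genes kept at a signal of 10 or more in 3 libraries or more, adjusted p under 0.05). Fold changes on this scale understate changes of low values. An exact test of 3 against 3 libraries cannot go below p = 0.1, whereas limma moderated the variance of each gene towards that of genes with like signal. The study calls all its replicates biological, but the labels do not say whether these were separate cultures. The p-values thus measure only the spread between these libraries, and how much of it is technical cannot be told. Exon lengths came from GENCODE vM21, found for 97.3% of genes, and RPKM used the summed values of a library. The fit was also run on simulated data, and the bearing of that run on the calls reported here was not tested. The alternatives were library-total and upper-quartile scaling, pseudocounts of 0.5 and 5, no filter, a maximum RPKM of 4, limma-voom, a replicate block, omission of each library in turn, the fold and p of the methods and coding lengths. The plan of results held the isoform shares but not the ratio of Ppp3r1 to the catalytic sum. Coding lengths for the subunit ratio and left-out libraries for shares and ratio were chosen after seeing the data. The 10 genes and the lists were chosen with earlier results of these data known. From each list the genes named were the up to 3 largest falls and rises that passed and well-expressed exceptions, save for a few that are not reported here, and Calm2, Itpr3, Orai3, Dyrk1b, Csnk1d, Csnk1e, Egr3, Prkar2a and Bcl2l13 were named after their values were seen. Protein sequences were not used here. Promoter windows came from RefSeq, for 7 of the 10 genes.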

Additional observations from a re-analysis of the deposited data

How the results depend on the processing

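With library-total or upper-quartile scaling, pseudocounts of 0.5 or 5, no filter, a maximum RPKM of 4, limma-voom or the replicate number as a block, 3 of the calcineurin and NFAT genes were lower and 4 higher, as reported. With each library left out in turn 2 to 3 were lower and 2 to 3 higher. The total was lowest, at 5, without Scr replicate 2 (3 lower and 2 higher) and without MICT1 KO replicate 3 (2 lower and 3 higher). Such fits have 5 libraries. In Scr replicate 2 the gene with the most signal was the ribosomal RNA gene Rn45s, at 1.92% of the library total. The top gene of each other library, Scd1 or Eef1a1, held 0.605% to 0.847%. The part of this in the calls was not tested. No direction of the 9 genes changed. At 1.8-fold with an unadjusted p under 0.05, 0 were lower and 0 higher, and of the genes in the 5 lists 6 were lower and 5 higher in place of 22 and 20. With each library left out the lists gave 19 to 22 lower and 18 to 20 higher genes, and with the replicate block 22 and 20.

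The replicate numbers gave no clear sign of a pairing of the libraries. Same-numbered libraries had correlations of their deviations from the group means of -0.0236, -0.0155 and 0.0637. Those of the other pairs ran from -0.0431 to 0.0561, and so few libraries cannot exclude a pairing. With the block 7055 genes passed in place of 7113.

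With coding lengths Ppp3ca made up 78.3% of the catalytic RPKM in Scr and 79.4% in MICT1 KO libraries, Ppp3cb 18.8% and 18.0%, and Ppp3cc 2.93% and 2.62%. The ratio of Ppp3r1 to the catalytic sum was then 2.76 and 1.96. Ppp3cc and Nfatc4, the scarcest of the 9 genes, had the widest intervals, and the part of depth in this was not tested.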
